A study of Mus musculus with 29 samples.

Results

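The nuclear pore and nuclear transport receptors are described here as the 42 genes whose symbols begin with Nup, Ipo or Xpo and a digit, with Xpot, or with Kpna or Kpnb. They were taken by symbol from 21819 genes listed for B cells and 21675 listed for fibroblasts. Expression was measured by RNA sequencing of rRNA-depleted RNA in FPKM, a read count scaled to gene length and library size. Tumours were suspensions of lymph nodes of C57BL/6 transgenic mice (Tg_lymphnode, n = 3), made without purification, so they hold whatever other cells the node contained. B cells were enriched with B220 beads from spleens of C57BL/6 mice aged 6 to 8 weeks, either transgenic (Tg_spleen, n = 4) or wild-type (WT_spleen, n = 4). The transgene of these Eu-myc mice drives Myc from an immunoglobulin enhancer, so it is active in the B lineage. The fibroblasts were 3T9 cells, an immortal mouse embryo line of mixed strain, with c-mycflox/flox alleles and infected with MycER, a Myc protein that 4-hydroxytamoxifen (OHT) activates. All fibroblast groups carry the same alleles and MycER: they received ethanol (OHT_0h, n = 4) or 400 nM OHT for 4, 8 or 16 h (OHT_4h, OHT_8h and OHT_16h, n = 4 each). Newly made RNA, labelled for 10 min with 300 µM 4-thiouridine, came from 1 library at 4 h of OHT (4sU_4h) and 1 at 0 h (4sU_0h). The labels do not say that libraries of a group came from separate animals or cultures, so p-values measure only the spread between these libraries.

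Nuclear pores are large protein channels through the nuclear envelope. A scaffold of Y-shaped complexes and inner rings holds nucleoporins with phenylalanine-glycine repeats that fill the channel, and fibrils and a basket extend from its faces. Importin alpha reads the classical import signal of a cargo and is carried in by importin beta, other importins bind cargoes directly, and exportins carry cargo out. The small GTPase Ran, in its GTP form inside the nucleus, releases import cargo and loads export cargo. Dividing cells build new pores in interphase and again after mitosis.

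The labels were checked first. Myc had 2123, 2179 and 1759 FPKM in tumours and 1017, 1275, 2408 and 1525 FPKM in transgenic spleens, against 227, 273, 215 and 191 FPKM in WT spleens, with no overlap between either transgenic group and WT. The 7 B cell markers summed to 17250, 19170 and 1354 FPKM in Tg_lymphnode replicates 1, 2 and 3, against 37290 to 41690 FPKM in WT spleens. The library labelled Tg_lymphnode replicate 3 held 12140 FPKM of 4 plasmacytoid dendritic cell markers, against 566 and 1047 FPKM in the other tumours. It also held 10770 FPKM of the 7 T cell markers, against 1469 and 1637 FPKM in the other tumours, while WT spleens held at most 1661 FPKM. Salivary gland and pancreas markers summed to 2601 to 11860 FPKM in tumours and to at most 60.8 FPKM in WT spleens. The B cell libraries also differed in Rpph1, the RNA of RNase P, which had 153474 to 735331 FPKM. Fibroblast values span a narrow range: the highest value of any gene was 139 to 201 FPKM, and beta-actin had 101 to 140 FPKM there, against 16247 to 39411 FPKM in B cell libraries. The 2 sets were therefore not compared in level.

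A total of 5 of the genes hold CACGTG, the E-box that Myc and Max dimers are known to bind, within the 250 bases before a RefSeq transcription start (RefSeq, GRCm38.p6). RefSeq promoters were matched for 32 of the 42 genes, so this is 15.6% of them, while 1854 of all 27025 genes with a RefSeq promoter (6.86%) hold the motif in the same window. The motif reads the same on both strands, and other E-box forms were not searched. Promoters of Nup43, Nup85, Nup35, Nup210l, Nup62-il4i1, Kpna1, Kpna3, Kpna6, Xpo4 and Xpo7 were not matched. The 5 stretches are printed because Myc is the factor that the study varied, and they let the positions be compared. Each is 5′ to 3′ on the strand of the gene, and capitals mark the motif.
Ipo7, chr7:110018138-110018223, plus strand: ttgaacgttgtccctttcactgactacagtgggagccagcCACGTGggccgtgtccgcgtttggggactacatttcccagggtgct
Xpot, chr10:121626518-121626582, minus strand: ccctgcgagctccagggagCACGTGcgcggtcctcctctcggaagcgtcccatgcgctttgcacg
Nup93, chr8:94214349-94214434, plus strand: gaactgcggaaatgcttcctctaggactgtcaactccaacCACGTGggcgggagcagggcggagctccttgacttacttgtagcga
Nup188, chr2:30286352-30286415, plus strand: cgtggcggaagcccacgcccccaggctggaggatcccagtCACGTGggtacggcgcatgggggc
Nup54, chr5:92435254-92435339, minus strand: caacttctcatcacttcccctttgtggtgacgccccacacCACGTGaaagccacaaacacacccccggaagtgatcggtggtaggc
The motif starts 137 bases before the start site in Ipo7, 231 in Xpot, 175 in Nup93 and 100 in Nup54. Nup188 holds it at 24 bases before the start and again at 66. These coordinates are of GRCm38.p6, while the authors' reads were placed on mm9, so no read data were joined to them.

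Transgenic spleens were set against WT spleens to ask how the transport genes stood in B cells that carry extra Myc before a tumour is labelled. In transgenic spleens 18 of 40 tested genes were higher and 0 lower at an adjusted p under 0.05, while of all 14021 genes tested 15.7% were higher and 12.2% lower (27.9% in either direction). At an unadjusted p under 0.05, 21 were higher and 0 lower, while 41.8% of all genes passed that line in either direction. Every transgenic library lay above every WT library in 21 of the genes (16.9% of all genes) and below in 0 (14.7%). The median log2 fold change was 0.45 over the 40 genes and -0.05 over all genes tested. Kpna7, an importin alpha of oocytes and early embryos, and Nup62cl, a relative of Nup62, lay below the filter with at most 0.7 FPKM in any spleen. In this kind of bulk RNA, more RNA per cell and more cells of a type cannot be told apart. The 7 T cell markers summed to 777 to 1564 FPKM in transgenic and 1317 to 1661 FPKM in WT spleens, and the 5 NK cell markers to 43.6 to 331 FPKM against 345 to 657 FPKM. At the threshold, 3 of 7 B cell markers, 3 of 5 NK cell markers and 0 of 7 T cell markers were lower in transgenic spleens. So were 2 of 4 plasmacytoid dendritic cell markers and 0 of 6 macrophage and monocyte markers. The 7 stroma and endothelium markers summed to 485 to 817 FPKM in transgenic and 1030 to 1199 FPKM in WT spleens, with 1 of 5 tested lower. The 8 fibroblast markers summed to 2291 to 5408 FPKM in transgenic spleens, highest in replicates 4 and 5, against 1286 to 1964 FPKM in WT spleens. Of these markers Vim, the intermediate filament vimentin, averaged 3802 FPKM in transgenic and 1455 FPKM in WT spleens and was the 1 of 6 tested that was higher, while Col1a2 averaged 3.25 and 2.65 FPKM. The part of these markers in the results was not tested.

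**Figure D1:**
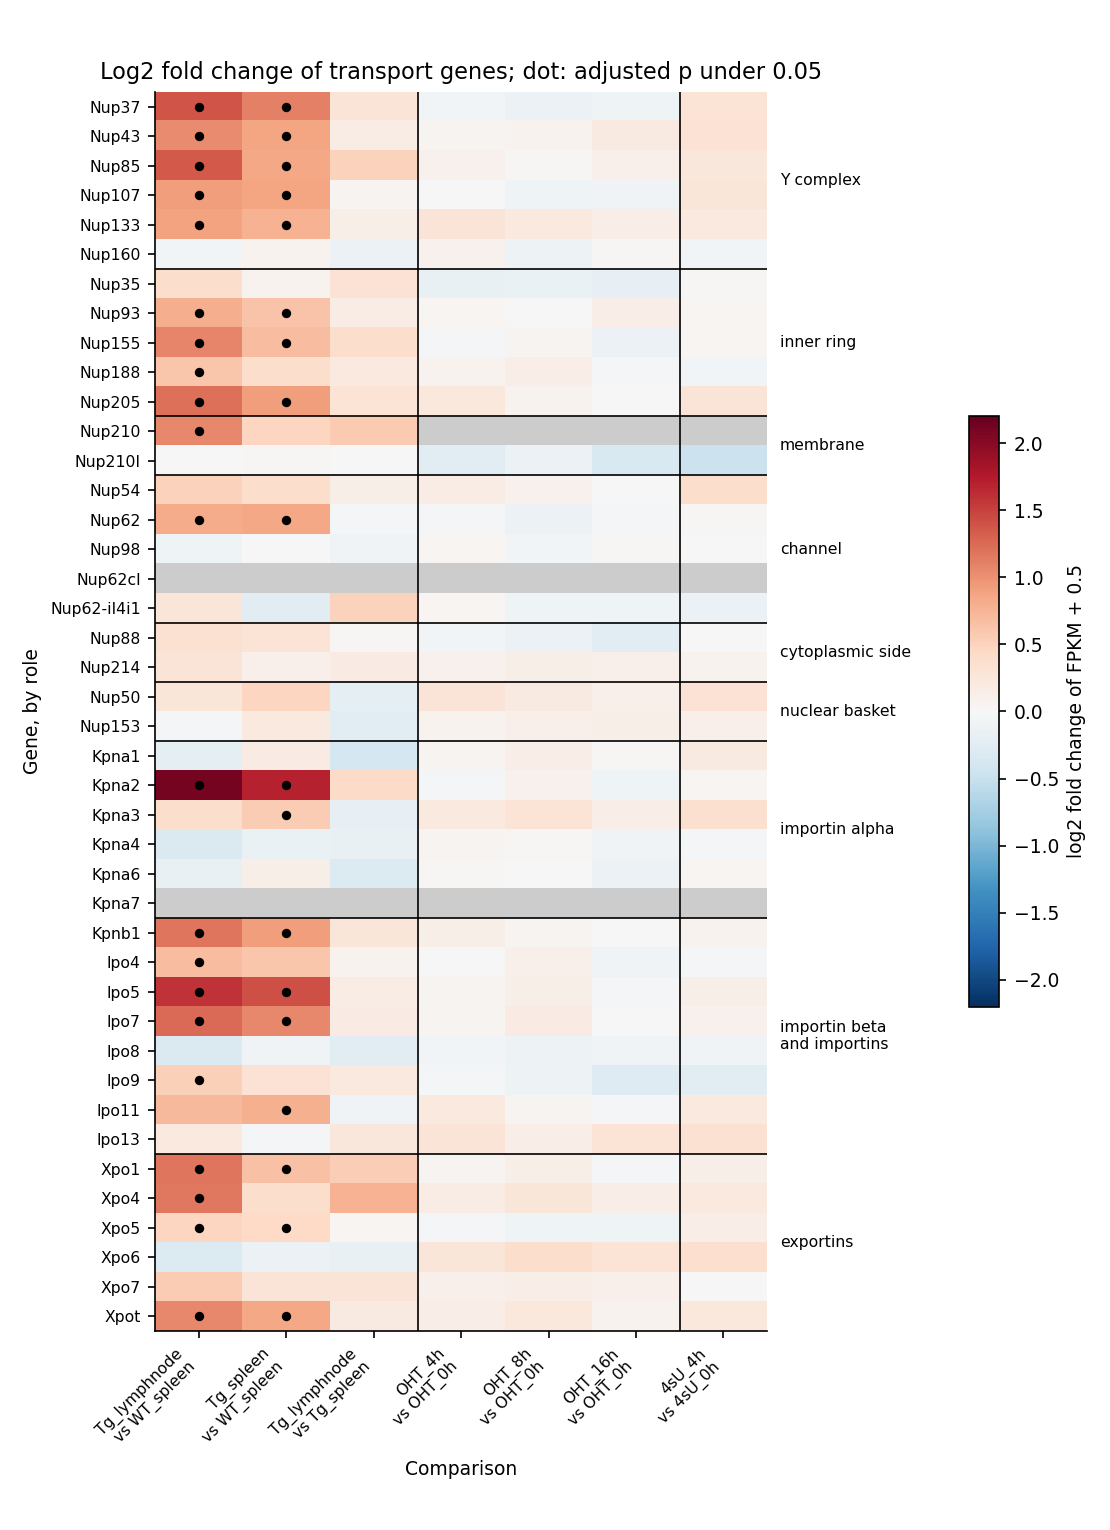
Log2 fold changes (colour, of FPKM + 0.5) of the 42 genes in rows, ordered by role, for each comparison in columns; black dots mark an adjusted p under 0.05 and grey cells were not tested. The 4sU column rests on 1 library each and has no test. Dots stand in the 2 columns against WT spleen, with 21 in tumours and 18 in transgenic spleens, and no other column has one.

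The import receptors held the largest differences. Kpna2, importin alpha 1, had 191, 296, 459 and 454 FPKM in transgenic spleens against 84.2, 102, 80.1 and 157 FPKM in WT spleens. Every transgenic library lay above every WT library, although replicate 2 stood close to the highest WT value. The log2 fold change was 1.69 ± 0.30 (SE, adjusted p = 0.00541), from a mean of 350 ± 131 FPKM in transgenic and 106 ± 35.2 FPKM in WT spleens (SD, n = 4 each). Ipo5, which imports ribosomal proteins and core histones, had 472, 547, 1227 and 691 FPKM in transgenic and 259, 254, 244 and 263 FPKM in WT spleens. WT values of Ipo5 were tight while transgenic values differed widely, and the log2 fold change was 1.42 ± 0.26 (SE, adjusted p = 0.00541). Ipo7, another carrier of ribosomal proteins and one of the genes with the printed E-box, had 1114, 1089, 1698 and 1166 FPKM in transgenic and 616, 553, 570 and 645 FPKM in WT spleens. Its log2 fold change was 1.06 ± 0.17 (SE, adjusted p = 0.0036), the smallest adjusted p of the family in this comparison. Kpnb1, importin beta itself, had 914, 1032, 1799 and 1172 FPKM in transgenic against 622, 584, 629 and 681 FPKM in WT spleens, a log2 fold change of 0.92 ± 0.20 (SE, adjusted p = 0.0113). So both the adaptor Kpna2 and the carrier Kpnb1 were higher in every transgenic library.

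Of the other importins, Ipo11 averaged 258 ± 59.3 FPKM in transgenic and 147 ± 3.52 FPKM in WT spleens, log2 fold change 0.78 (adjusted p = 0.0083). Ipo4, a histone importin, and Ipo9, a carrier of histones and ribosomal proteins, had log2 fold changes of 0.60 and 0.31 that did not pass (adjusted p = 0.0625 and 0.154). Ipo8, the closest relative of Ipo7, had 208 to 273 FPKM in transgenic and 239 to 260 FPKM in WT spleens, a log2 fold change of -0.08 (adjusted p = 0.637). Ipo7 and Ipo8 thus had different values in these libraries, but their difference was not itself tested. Ipo13, which carries cargo in both directions, had a log2 fold change of -0.04 with overlapping groups.

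The importin alpha family had 2 of 5 tested genes higher. Kpna3 had 253, 251, 449 and 259 FPKM in transgenic and 207, 193, 191 and 201 FPKM in WT spleens, log2 fold change 0.57 (adjusted p = 0.0469). This call rests on narrow ground, since it was lost in 6 of 8 fits with 1 library left out. Kpna4, the most abundant importin alpha of these spleens, had 492 to 604 FPKM in transgenic and 544 to 616 FPKM in WT spleens, with overlapping groups and a log2 fold change of -0.15 (adjusted p = 0.381). Kpna1 and Kpna6 had log2 fold changes of 0.19 and 0.13 and did not pass. As a share of the summed FPKM of the 5 detected importin alphas, Kpna2 made up 25.7% to 31.0% in tumours and 12.1% to 26.0% in transgenic spleens, against 6.00% to 10.8% in WT spleens. Kpna4 made up 25.7% to 32.8% in tumours and 25.0% to 38.4% in transgenic spleens, against 41.7% to 43.9% in WT spleens. Neither share overlapped between WT and either transgenic group. These shares were chosen after the values were seen and carry no test.

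**Figure D2:**
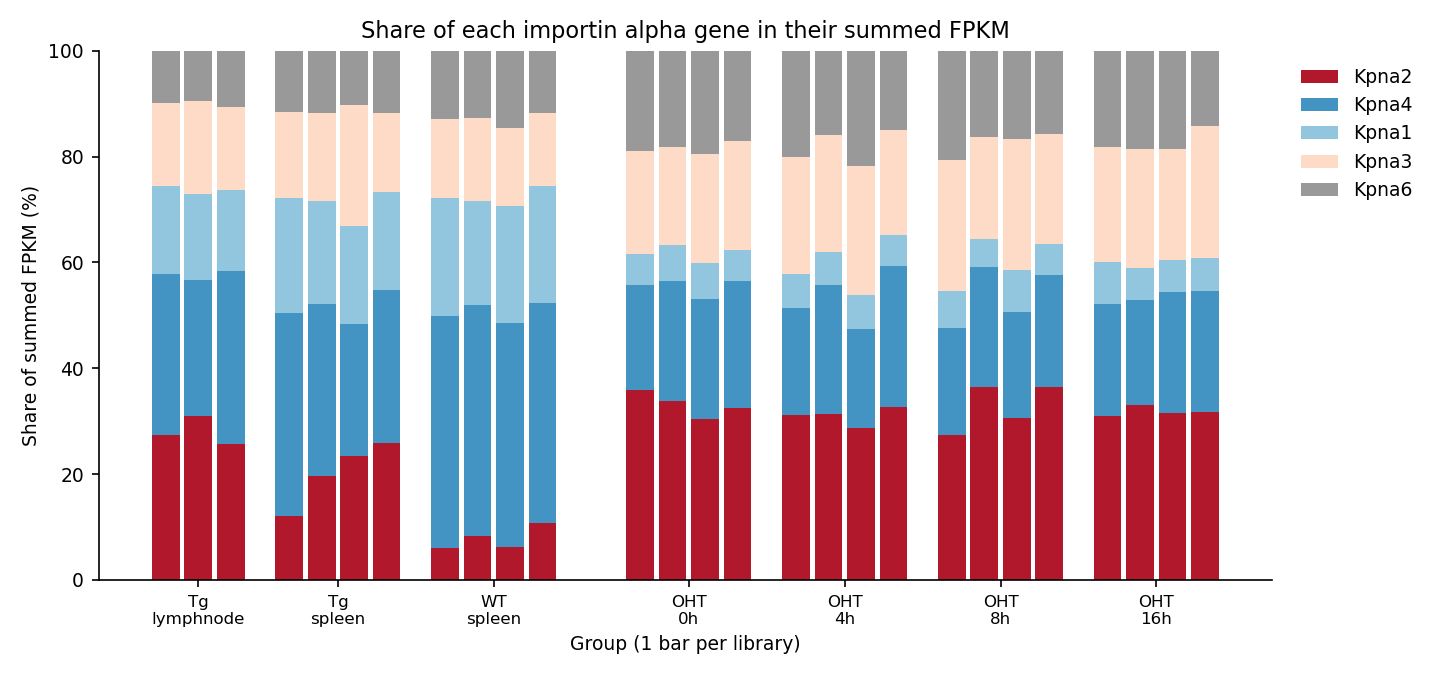
Share (%) of each importin alpha gene in the summed FPKM of Kpna1, Kpna2, Kpna3, Kpna4 and Kpna6, 1 bar per library, for the 3 B cell groups on the left and the fibroblast times on the right. The Kpna2 share is 6.00% to 10.8% in WT spleens and at least 12.1% in each transgenic library. In fibroblasts it is 27.5% to 36.5% over the times. Fibroblast values have a narrower scale, so shares are compared only within each set.

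The Y complex, the outer scaffold, had 5 of 6 genes higher in transgenic spleens. Nup37 had 131, 164, 299 and 296 FPKM in transgenic and 106, 99.1, 81.6 and 104 FPKM in WT spleens, a log2 fold change of 1.10 ± 0.26 (SE, adjusted p = 0.015). Nup85, the highest of the complex by the mean over both groups, had 373, 408, 782 and 642 FPKM in transgenic and 295, 262, 292 and 326 FPKM in WT spleens. Its log2 fold change was 0.84 ± 0.23 (SE, adjusted p = 0.0232). Nup43, Nup107 and Nup133 had log2 fold changes of 0.87, 0.87 and 0.76 (adjusted p = 0.0147, 0.0222 and 0.0297), with no overlap between groups. The calls of Nup85, Nup107 and Nup133 were each lost in 4 of 8 fits with 1 library left out. Nup160, which belongs to the same complex, stood apart: it had 424, 418, 515 and 315 FPKM in transgenic and 420, 389, 395 and 359 FPKM in WT spleens, a log2 fold change of 0.08 (adjusted p = 0.734).

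The inner ring had 3 of 5 genes higher. Nup205, a large scaffold protein, had 478, 574, 975 and 663 FPKM in transgenic and 342, 354, 326 and 348 FPKM in WT spleens, a log2 fold change of 0.92 ± 0.20 (SE, adjusted p = 0.0105). Nup155 and Nup93 had log2 fold changes of 0.69 and 0.64 (adjusted p = 0.0236 and 0.0441). Their calls were lost in 3 and 6 of 8 fits with 1 library left out. Nup188, a paralog of Nup205, had 461 FPKM in Tg_spleen replicate 4 and 237 to 245 FPKM in the other transgenic libraries, against 207 to 246 FPKM in WT spleens. Its log2 fold change of 0.38 did not pass (adjusted p = 0.197). Nup35, the lowest of the ring at 37.9 to 50.1 FPKM in transgenic and 38.6 to 49.0 FPKM in WT spleens, had a log2 fold change of 0.07.

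Of the 10 tested nucleoporins of the channel, the membrane, the cytoplasmic side and the basket, 1 was called higher. Nup62, the central channel protein, had 295, 332, 688 and 556 FPKM in transgenic and 253, 228, 246 and 248 FPKM in WT spleens, log2 fold change 0.85 (adjusted p = 0.0305). This call was lost in 6 of 8 fits with 1 library left out. The readthrough entry Nup62-il4i1, which overlaps Nup62, had 3.6 to 4.1 FPKM in transgenic and 1.6 to 7.8 FPKM in WT spleens, and how reads were divided between the 2 is not given in the sources used here. Nup98, a repeat nucleoporin of the channel, had 437, 399, 487 and 317 FPKM in transgenic and 432, 376, 396 and 430 FPKM in WT spleens, a log2 fold change of -0.01 (adjusted p = 0.967). Nup54, the partner of Nup62, had a log2 fold change of 0.38 (adjusted p = 0.139). Neither Nup88 (0.30) nor Nup214 (0.11) of the cytoplasmic side, nor Nup50 (0.48) nor Nup153 (0.22) of the basket, passed. Nup210, a membrane nucleoporin and the highest gene of the family in B cells, had 1120, 1158, 1662 and 1132 FPKM in transgenic and 905, 968, 932 and 793 FPKM in WT spleens. Every transgenic value of Nup210 lay above every WT value, with a log2 fold change of 0.48 and an adjusted p of 0.0548. Its paralog Nup210l had 28.6 to 35.2 FPKM in transgenic and 26.5 to 37.1 FPKM in WT spleens.

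Among exportins 3 of 6 were higher. Xpo1, the exporter of proteins with leucine-rich signals, had 863, 934, 1355 and 969 FPKM in transgenic and 671, 627, 630 and 675 FPKM in WT spleens, a log2 fold change of 0.64 ± 0.16 (SE, adjusted p = 0.0172). Xpot, the tRNA exporter and a gene with the printed E-box, had 162, 188, 278 and 207 FPKM in transgenic and 109, 105, 119 and 117 FPKM in WT spleens. Its log2 fold change was 0.86 ± 0.16 (SE, adjusted p = 0.00669). Xpo5, which exports precursor microRNAs, passed with a log2 fold change of 0.43 (adjusted p = 0.0473) and lost the call in 6 of 8 fits with 1 library left out. Xpo4, Xpo7 and the actin exporter Xpo6 had log2 fold changes of 0.38, 0.28 and -0.14 and did not pass.

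**Figure D3:**
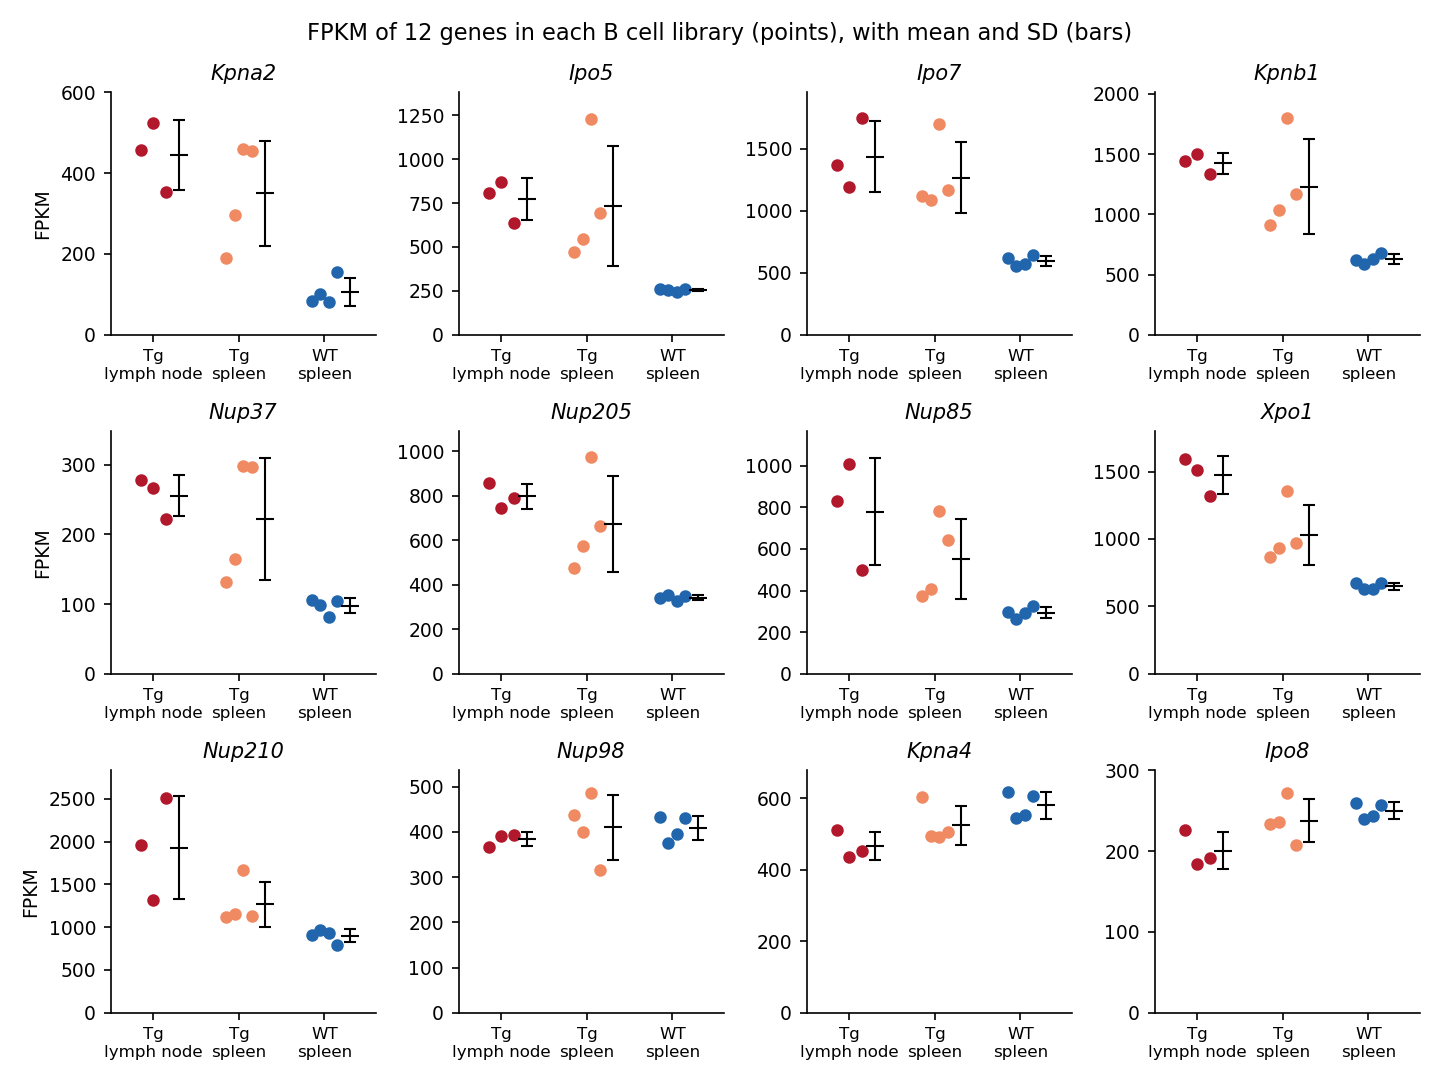
FPKM (y axis, from 0) of 12 genes in each library of tumours, transgenic spleens and WT spleens (points), with mean and SD (black). Kpna2 lies between 191 and 525 FPKM in all transgenic libraries and at or below 157 FPKM in WT spleens, whereas Nup98 overlaps in all 3 groups; 1 transgenic spleen (replicate 4) is high in most panels.

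Tg_spleen replicate 4 was the highest of its group in 33 of the 40 genes at or above 1 FPKM, while over all 14040 such genes it was highest in 30.7%. It also had the most Myc of the transgenic spleens (2408 FPKM) and their lowest B cell marker sum (23240 FPKM, against 30560 to 36210 FPKM). The part of these in the result was not tested. Without that library 16 genes were higher, where 1628 of all genes tested were, and the median log2 fold change of the transport genes was 0.34. Of the 18 calls, 9 were kept with each of the 8 libraries left out in turn: Kpna2, Ipo5, Ipo7, Ipo11, Kpnb1, Nup37, Nup43, Nup205 and Xpot. With WT_spleen replicate 4 left out 9 genes were called, and without WT_spleen replicate 1 or 3, or Tg_spleen replicate 5, 10, 10 and 12 were. Genes called higher over all those tested fell too, from 2206 to 1341, 1425, 1614 and 1470 in those fits. Between libraries of high Rpph1 (2 against 2) 9 genes were higher and 0 lower, and between those of low Rpph1 (2 against 2) 14 were higher and 0 lower. Over all genes tested, 908 were higher and 518 lower within high Rpph1, and 1960 and 1374 within low Rpph1.

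Tumours were set against WT spleens to ask the same of lymphomas. In tumours 21 of 40 tested genes were higher and 0 lower, while of all 14758 genes tested 20.3% were higher and 17.7% lower (38.1% in either direction). At an unadjusted p under 0.05, 26 were higher and 2 lower, while 48% of all genes passed that line in either direction. Every tumour lay above every WT library in 24 of the genes (24% of all genes) and below in 2 (21.4%). The median log2 fold change was 0.58 over the 40 genes and 0.05 over all genes tested. With the library labelled Tg_lymphnode replicate 3 left out, 25 genes were higher, 0 were lower and the median was 0.69. Of all genes tested, 3466 were higher and 3189 lower in that fit. Of the 21 calls, 18 were kept with each of the 7 libraries left out in turn, and those lost were Ipo4 (in 5 of 7 fits), Ipo9 (6 of 7) and Xpo5 (5 of 7). This comparison shares its WT libraries with that of the transgenic spleens. It also sets unpurified lymph node against B220-enriched spleen, so genotype, tumour, tissue and purification cannot be told apart. In tumours 7 of 7 salivary gland and pancreas markers, 8 of 8 fibroblast markers and 5 of 7 stroma and endothelium markers (1 lower) were higher. The fibroblast and stroma lists share Col1a1, Col1a2, Col3a1 and Pdgfrb. Lower were 5 of 5 NK cell markers, 4 of 6 macrophage and monocyte markers (1 higher) and 3 of 7 B cell markers. Of 4 plasmacytoid dendritic cell markers 1 was higher and 0 lower. Of 7 T cell markers 2 were higher and 1 lower, and the red blood cell markers summed to 270 to 367 FPKM in tumours and 56.1 to 181 FPKM in WT spleens. Their part in the result was not tested.

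**Figure D4:**
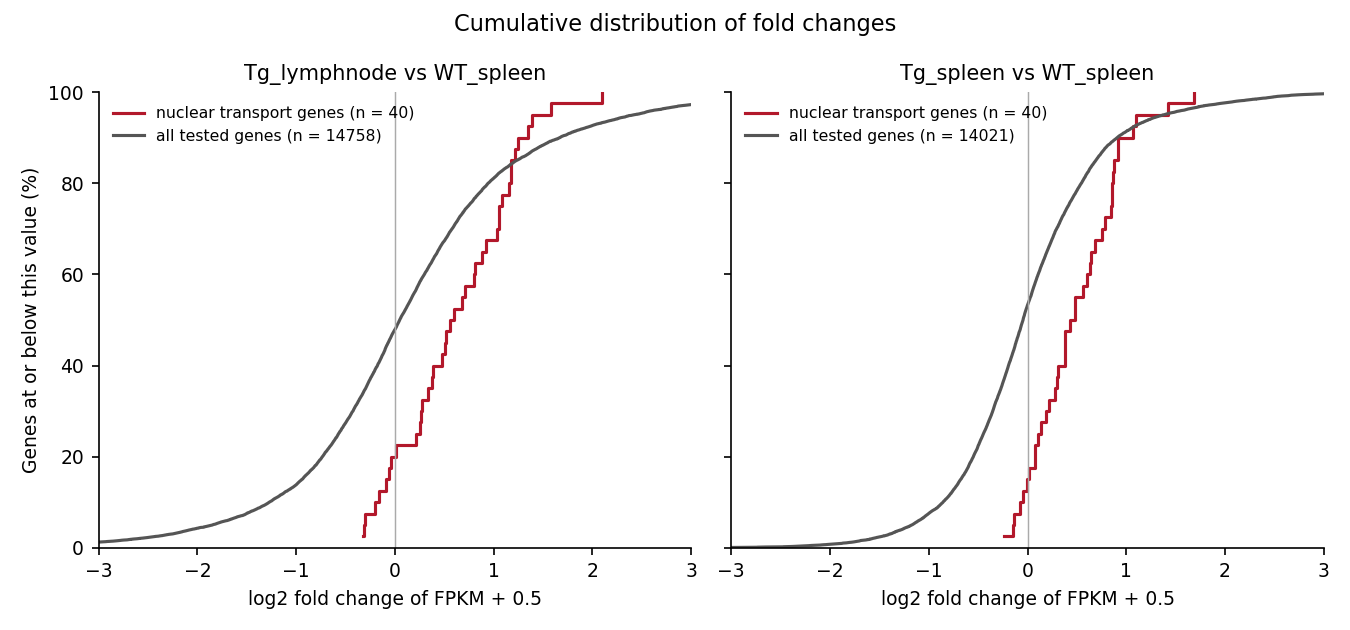
Cumulative share (%) of genes at or below each log2 fold change, for the nuclear transport genes (red, n = 40) and all tested genes (grey), in tumours (left) and transgenic spleens (right) against WT spleens. The red curves lie to the right of the grey ones over most of their length, with medians of 0.58 and 0.45 for the transport genes and 0.05 and -0.05 for all genes.

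The 6 largest differences in tumours were again led by import receptors. Kpna2 had 457, 525 and 353 FPKM in tumours against 84.2, 102, 80.1 and 157 FPKM in WT spleens, a log2 fold change of 2.10 ± 0.26 (SE, adjusted p = 0.000708). Ipo5 had 808, 870 and 638 FPKM in tumours and 244 to 263 FPKM in WT spleens, log2 fold change 1.58 ± 0.14 (SE, adjusted p = 0.000236). Nup37 had 278, 266 and 222 FPKM in tumours and 81.6 to 106 FPKM in WT spleens, log2 fold change 1.38 ± 0.15 (SE, adjusted p = 0.000489). For these 3 genes no tumour library overlapped the WT range. Nup85 had 831, 1009 and 499 FPKM in tumours and 262 to 326 FPKM in WT spleens, with the lowest tumour value in replicate 3 and a log2 fold change of 1.35 ± 0.24 (SE, adjusted p = 0.00346). Ipo7 had 1368, 1187 and 1745 FPKM in tumours and 553 to 645 FPKM in WT spleens, log2 fold change 1.25 ± 0.17 (SE, adjusted p = 0.00126). Nup205 had 857, 746 and 792 FPKM in tumours and 326 to 354 FPKM in WT spleens, log2 fold change 1.22 ± 0.12 (SE, adjusted p = 0.000324).

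Kpnb1, the highest importin in this comparison, had 1438, 1503 and 1330 FPKM in tumours and 584 to 681 FPKM in WT spleens, a log2 fold change of 1.18 ± 0.14 (SE, adjusted p = 0.000644). Xpo1, the highest exportin, had 1591, 1510 and 1320 FPKM in tumours and 627 to 675 FPKM in WT spleens, a log2 fold change of 1.17 ± 0.14 (SE, adjusted p = 0.000704). Both differed by more than the spread within either group. Xpo4, whose known cargoes include eIF5A, had 461, 666 and 343 FPKM in tumours and 200 to 223 FPKM in WT spleens, log2 fold change 1.15 (adjusted p = 0.00454). Xpot and Xpo5 were also higher, by 1.06 and 0.47 on the log2 scale. Nup210 had 1966, 1313 and 2512 FPKM in tumours and 793 to 968 FPKM in WT spleens, log2 fold change 1.06 ± 0.23 (SE, adjusted p = 0.00963). Its highest value was in replicate 3, where most other genes of the family were lowest of the tumours (28 of 40). Over all 14970 genes at or above 1 FPKM, that library was lowest in 39.0%.

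Most other scaffold genes were also higher in tumours. Nup107, Nup133 and Nup43 of the Y complex had log2 fold changes of 0.93, 0.88 and 1.03, and Nup155, Nup93 and Nup188 of the inner ring 1.08, 0.80 and 0.60, all past the threshold. Of this scaffold Nup160 did not pass (log2 fold change -0.06, adjusted p = 0.794), and Nup35 (0.39, adjusted p = 0.163) did not either. Nup62 was higher by 0.81 on the log2 scale (adjusted p = 0.00818). Nup54 lay above WT in every tumour library, at 200, 212 and 167 FPKM against 113 to 162 FPKM, without passing (adjusted p = 0.0586). Nup98 (-0.09), Nup153 (-0.04), Nup50 (0.26), Nup214 (0.28), Nup88 (0.33), Nup210l (0.01) and Nup62-il4i1 (0.27) did not pass, and Nup62cl and Kpna7 were not tested.

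Several receptors had log2 fold changes below 0 in tumours, and none of these passed in the reported fit. Kpna4 had 510, 435 and 451 FPKM in tumours against 616, 544, 552 and 607 FPKM in WT spleens, a log2 fold change of -0.32 (adjusted p = 0.0916). Ipo8 had 227, 184 and 192 FPKM in tumours against 260, 239, 243 and 258 FPKM in WT spleens, also a log2 fold change of -0.32 (adjusted p = 0.0803). Both lay below every WT library, as 21.4% of all genes did, without passing. Ipo8 was called lower (adjusted p = 0.0415) only with Tg_lymphnode replicate 1 left out. Xpo6 had a log2 fold change of -0.31, Kpna1 of -0.20 and Kpna6 of -0.16, with overlapping groups. Ipo9 passed with 0.52 (adjusted p = 0.0321). Ipo4 passed with 0.68 (adjusted p = 0.0482) although its lowest tumour value, 134 FPKM, lay under the highest WT value, 140 FPKM. Ipo11 (0.71, adjusted p = 0.0506), Kpna3 (0.38, adjusted p = 0.0705), Xpo7 (0.56, adjusted p = 0.0813) and Ipo13 (0.21) did not pass.

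Tumours and transgenic spleens were then set against each other directly. Of 40 genes 0 were higher and 0 lower in tumours, while of all 14692 genes tested 3.56% were higher and 2.39% lower (5.95% in either direction). Every tumour lay above every transgenic spleen in 1 gene, Nup62-il4i1 (11.8% of all genes), and below in 2, Kpna1 and Kpna6 (10.6%). At an unadjusted p under 0.05 limma gave 2 higher, Xpo4 and Xpo1, and 0 lower, while 23.2% of all genes passed that line. After adjustment, limma without trend and robust also gave 0 calls. Xpo4 had 461, 666 and 343 FPKM in tumours and 293, 298, 354 and 189 FPKM in transgenic spleens, log2 fold change 0.77 ± 0.29 (SE, adjusted p = 0.157). Xpo1 had a log2 fold change of 0.53 ± 0.22 (SE, adjusted p = 0.193). Kpna1, an importin alpha, had 277, 274 and 209 FPKM in tumours and 342, 294, 363 and 324 FPKM in transgenic spleens, below each of them, with a log2 fold change of -0.39 (adjusted p = 0.232). Kpna2 differed by 0.41 ± 0.33 (SE) on the log2 scale and Kpnb1 by 0.26 ± 0.26 (SE), within the spread between libraries. Differences between tumours and transgenic spleens in these genes were not detectable here, which does not show that the groups are alike.

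Other genes of the pathway, with symbols outside the rule, were counted beside the family. Their counts stand against 20.3% of all genes called higher in tumours and 15.7% in transgenic spleens. Of the Ran cycle, 4 of 5 tested genes were higher and 0 lower in tumours and in transgenic spleens. Ran itself had 1385, 1956 and 1237 FPKM in tumours and 674, 1054, 1449 and 1314 FPKM in transgenic spleens, against 345, 558, 248 and 462 FPKM in WT spleens. Its log2 fold change was 1.96 in tumours (adjusted p = 0.0019) and 1.48 in transgenic spleens (adjusted p = 0.00771). Rcc1, the exchange factor that charges Ran with GTP, had log2 fold changes of 1.89 and 1.74 (adjusted p = 0.000909 and 0.00424), and the Ran-binding protein Ranbp1 of 1.32 and 1.40 (adjusted p = 0.00355 and 0.00686). Every tumour and transgenic spleen value of these 3 genes lay above every WT value. Of 13 nucleoporins with other symbols, 4 were higher in tumours and 3 in transgenic spleens, and 0 were lower in either. Tmem48, the membrane nucleoporin also called Ndc1, had 355, 332 and 254 FPKM in tumours and 127, 135, 258 and 218 FPKM in transgenic spleens, against 64.4 to 80.5 FPKM in WT spleens. Its log2 fold changes were 2.12 and 1.30 (adjusted p = 0.000129 and 0.00497).

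Of 10 transport receptors with other symbols, 3 were higher in tumours and 2 in transgenic spleens, with 0 lower, shares near or somewhat above those of all genes. They included Tnpo2, a transportin, at log2 fold changes of 0.87 and 0.51, and Cse1l, which returns importin alpha to the cytoplasm, at 0.53 in transgenic spleens (adjusted p = 0.0415). Of 15 mRNA export genes, 3 were higher in tumours and 8 in transgenic spleens, with 0 lower, so the tumour count lies at the share of all genes. The adaptor Thoc4 had log2 fold changes of 1.40 and 1.39 (adjusted p = 0.00325 and 0.0117). In the lamina list of 9 genes, 4 were higher and 1 lower in tumours, and 3 were higher and 2 lower in transgenic spleens. The B-type lamins Lmnb1 and Lmnb2 had log2 fold changes of 1.88 and 1.42 in tumours and 1.83 and 1.37 in transgenic spleens. Sun2, a protein of the inner nuclear membrane, fell by 0.62 on the log2 scale in tumours (adjusted p = 0.0326), and it fell by 0.59 in transgenic spleens (adjusted p = 0.013).

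The E-box genes were spread over called and uncalled genes. Of the genes with a matched promoter, 4 of 18 called higher in tumours and 1 of 12 not called held CACGTG, and in transgenic spleens 3 of 15 called higher and 2 of 15 not called did. Ipo7, Xpot and Nup93 were called in both, Nup188 in tumours, and Nup54 in neither. The Nup93 call in transgenic spleens was lost in 6 of 8 fits with 1 library left out, while Ipo7 and Xpot kept theirs. Nup188 lost its tumour call in the fit of all 3 B cell groups. Kpna2, Ipo5 and Nup37, with the largest differences, do not hold these letters in the window, and nothing follows from that about Myc binding.

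The fibroblasts were treated with OHT to ask what follows activation of MycER over hours. RNA counted under the symbol Myc fell by 1.15 on the log2 scale at 4 h (adjusted p = 0.000875), with 7.92 to 14.5 FPKM at 4 h against 20.3 to 29.7 FPKM at 0 h. Whether RNA of MycER is counted there too is not given in the sources used here. The activity of MycER, a protein switched on by the drug, cannot be read from these values. Of 39 tested transport genes 0 were higher and 0 lower at 4, at 8 and at 16 h. Of all 12934 genes tested, 1.9% were higher and 2.88% lower at 4 h (4.78% in either direction), 1.21% and 0.982% at 8 h (2.19%), and 1.76% and 7.75% at 16 h (9.51%). At an unadjusted p under 0.05, 2 transport genes were higher at 4 h (Nup133 and Nup50), 2 at 8 h (Kpna3 and Xpo6) and 0 at 16 h, with 0 lower at any time, while 16.4%, 12.9% and 23.5% of all genes passed that line. Against 4 h, 0 transport genes passed at 8 or 16 h with limma, also unadjusted, and 0 of all genes did after adjustment. On the deposited scale, with any 1 library of the 2 groups compared or all those numbered 4 left out, 0 transport genes were called at any time.

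The scale chosen for the fibroblasts affects this count. Median ratio scaling gave 1, 1 and 4 genes higher at 4, 8 and 16 h, and quantile normalization 2, 2 and 3, with 0 lower. Over all genes tested, calls grew too: 738, 652 and 979 genes were higher with median ratio scaling and 888, 681 and 1022 with quantile normalization, against 246, 156 and 228 on the deposited scale. At 16 h the median log2 fold change was 0.00 over the 39 genes and -0.14 over all genes on the deposited scale. With median ratio scaling it was 0.20 over the 39 genes and 0.05 over all genes. The genes called with median ratio scaling at 16 h were Xpo6, Nup43, Ipo13 and Nup93, with log2 fold changes of 0.49, 0.40, 0.50 and 0.35. Of the 42 genes, 14 averaged at least 50 FPKM at 0 h, where 8.4% of all listed genes did, so many lie in the narrow upper range of these values.

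Kpna2, the highest importin alpha of the fibroblasts, had 104, 96.8, 84.9 and 100 FPKM at 0 h, 86.2, 90.8, 93.2 and 109 FPKM at 4 h, 86.7, 119, 94.7 and 113 FPKM at 8 h, and 95.0, 82.3, 93.8 and 91.5 FPKM at 16 h. The times overlapped, and the log2 fold changes against 0 h were -0.03, 0.09 and -0.09. Kpnb1 had 89.6 to 96.8 FPKM at 0 h, 84.5 to 123 FPKM at 4 h, 91.2 to 113 FPKM at 8 h and 86.1 to 97.9 FPKM at 16 h. Ipo5, which differed so much between spleens, had 37.3 to 46.6 FPKM at 0 h, 39.7 to 52.6 FPKM at 4 h, 39.0 to 53.2 FPKM at 8 h and 37.0 to 44.2 FPKM at 16 h. None of these 3 moved beyond the spread within a time. Xpo1 had 64.4 to 82.8 FPKM at 0 h, 69.6 to 93.7 FPKM at 4 h, 68.6 to 95.1 FPKM at 8 h and 64.7 to 77.8 FPKM at 16 h, overlapping likewise. Nup210, the top gene of the family in B cells, was at or below 0.473 FPKM in every fibroblast library and was not tested, as were Kpna7 and Nup62cl.

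A few genes left the range of 0 h. Xpo6, the exporter of actin with profilin, had 19.2, 21.1, 18.7 and 16.4 FPKM at 0 h, 22.1, 21.6, 25.1 and 21.7 FPKM at 4 h, 27.6, 21.7, 29.4 and 21.5 FPKM at 8 h, and 30.5, 19.5, 23.1 and 20.9 FPKM at 16 h. Every value at 4 and 8 h lay above every value at 0 h, with log2 fold changes of 0.26 and 0.39 (adjusted p = 0.441 and 0.229), and at 16 h the ranges overlapped (0.30, adjusted p = 0.242). Nup133 had 25.5 to 27.0 FPKM at 0 h, 27.2 to 41.2 FPKM at 4 h and 28.6 to 36.1 FPKM at 8 h. Nup50, of the nuclear basket, had 49.7 to 55.3 FPKM at 0 h and 55.6 to 69.3 FPKM at 8 h. These 2 also lay above 0 h without passing (Nup133 adjusted p = 0.274 at 4 h and 0.563 at 8 h, Nup50 adjusted p = 0.518 at 8 h). Ipo9 had 36.0 to 37.8 FPKM at 0 h and 24.5 to 35.4 FPKM at 16 h, below every 0 h value, with a log2 fold change of -0.29 (adjusted p = 0.229). Over all tested genes, every library lay above 0 h in 4.37% at 4 h, 4.65% at 8 h and 2.61% at 16 h, where 2, 3 and 0 of the 39 transport genes did. Every library lay below 0 h in 8.18%, 8.37% and 11.2% of all genes and in 0, 0 and 1 of the 39. Against 4 h, no transport gene separated at 8 h (0.263% of all genes above and 0.387% below) or at 16 h (0.0309% above and 0.356% below).

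**Figure D5:**
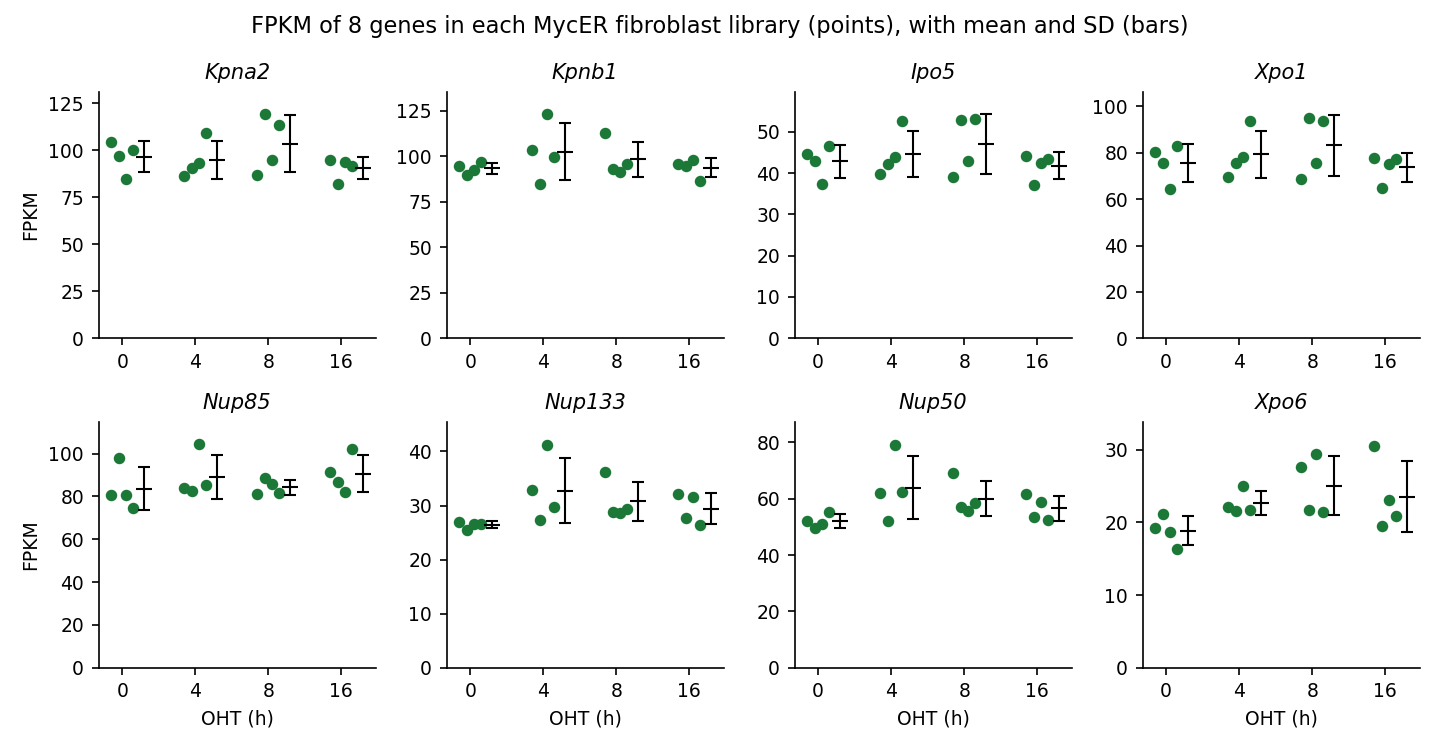
FPKM (y axis, from 0) of 8 genes in each MycER fibroblast library after 0, 4, 8 and 16 h of OHT (points), with mean and SD (black, n = 4). Kpna2, Kpnb1, Ipo5 and Xpo1 overlap at all times, and Xpo6 lies above its 0 h values at 4 and 8 h.

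The other roles gave the same picture in fibroblasts. Nup85, the highest of the Y complex, averaged 83.6 ± 10.1 FPKM at 0 h, 89.1 ± 10.4 FPKM at 4 h, 84.3 ± 3.52 FPKM at 8 h and 90.6 ± 8.61 FPKM at 16 h (SD, n = 4 each). Nup155 of the inner ring averaged 48.0 ± 5.07, 47.2 ± 6.31, 50.1 ± 7.98 and 43.9 ± 4.28 FPKM at those times, and Nup62 of the channel 68.6 ± 8.67, 66.2 ± 7.98, 62.2 ± 3.76 and 66.0 ± 4.60 FPKM. Nup153 of the basket averaged 65.0 ± 2.97, 68.6 ± 2.85, 70.3 ± 3.79 and 70.9 ± 5.29 FPKM, and Nup88 of the cytoplasmic side 40.2 ± 5.45, 38.3 ± 4.99, 36.5 ± 2.68 and 33.7 ± 2.13 FPKM. Neither passed at any time. Over the 39 tested genes, log2 fold changes against 0 h ran from -0.24 to 0.29 at 4 h, -0.15 to 0.39 at 8 h and -0.34 to 0.30 at 16 h. The lowest at 4 and 16 h was Nup210l, which averaged 4.12 ± 0.54 FPKM at 0 h, 3.43 ± 0.59 FPKM at 4 h and 3.25 ± 1.16 FPKM at 16 h. Of the other genes of the pathway, Nxt2, a cofactor of mRNA export, was the 1 gene called: it fell by 0.70 on the log2 scale at 16 h (adjusted p = 0.0191).

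Nascent RNA had 1 library per time, so it has no replicate check and no test. Of 39 genes 0 were at least 1.5-fold higher and 0 at least 1.5-fold lower at 4 h, while 4.83% and 3.52% of all 12375 genes were. The median log2 ratio was 0.09 over these genes and 0.02 over all genes, and 30 of 39 ratios were above 0. Over all genes, the ratio of Xpo7, 0.0025, stood at percentile 46.6. Ratios above 0 were thus more frequent among the 39 genes than over all genes, a difference that was not tested. With 1 library per time, a shift of a whole library cannot be told apart from a change in these genes. The largest were Nup54, with 22.9 FPKM at 4 h against 17.4 FPKM at 0 h (log2 ratio 0.38), Xpo6, with 24.8 against 19.1 FPKM (0.37), and Kpna3, with 23.9 against 18.5 FPKM (0.36). All of the Y complex genes but Nup160 had ratios of 0.21 to 0.32, and Nup160 had -0.06. Kpna2 had 49.7 FPKM at 4 h against 48.2 FPKM at 0 h, and Kpnb1 44.9 against 42.4 FPKM, ratios of 0.04 and 0.08. The lowest was Nup210l, with 2.49 against 3.65 FPKM (-0.47).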

How the data were processed

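Libraries were deposited as 1 table each of gene symbols and FPKM, normalized by the authors. Per the submitters' processing notes the build was mm9 and the tools were TopHat2 2.0.8, TopHat, SAMtools and HTSeq 0.5.3p9; annotation, strand and scaling rule are not given in the sources used here. Counts are not part of these tables; depth per library is therefore unknown, and no counting interval is given. B cell values carry 1 decimal.

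Values were taken as log2(FPKM + 0.5), which understates changes of low genes. Genes reaching 1 FPKM in a number of libraries equal to the size of the smaller group entered the test, run over the whole table with limma 3.58.1 in R 4.3.3 (trend and robust), two-sided, adjusted by Benjamini-Hochberg, with a call under 0.05. B cell comparisons were fitted on their 2 groups and the 16 total RNA fibroblast libraries together. The fit was tested on simulated data whose noise was drawn separately for each gene and library. That test says nothing about shifts of a whole library. Python 3.11.15, NumPy 2.4.6, pandas 2.3.3 and Matplotlib 3.10.9 made summaries and figures. Values were given in full for the 6 called genes with the largest change in each direction (mean of at least 5 FPKM) and for the most abundant gene of each role, and up to 3 genes per other list were named by smallest adjusted p. Genes named beyond that, and importin alpha shares, were chosen after values were seen. The genes, lists, roles and alternatives were chosen with earlier results of these data known. Alternatives were pseudocount, filter, scaling, limma settings, other groups in the fit, Rpph1 level, a replicate block and leaving out libraries. Between 8 and 4 h of OHT, deviations of same-numbered libraries correlated at 0.143 to 0.408 in the 4 pairs, although library 1 at 8 h matched library 3 at 4 h best. All reported tests were fitted without pairing, and the replicate block was run only as an alternative.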

Additional observations from a re-analysis of the deposited data

Results flagged for a closer look

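In groups of 4 libraries, 19 of 236 sets of 4 values (1 gene in 1 group) had a highest or lowest library set apart from the other 3 by more than Dixon's 95% limit; chance gives about 1 in 20. Tg_spleen replicate 4 was set apart as the highest for Nup155 (445 FPKM), Nup188 (461 FPKM), Nup210 (1662 FPKM), Kpna3 (449 FPKM), Ipo4 (249 FPKM) and Ipo7 (1698 FPKM). Tg_spleen replicate 2 was the highest for Kpna4 (604 FPKM). In WT spleens, replicate 4 was the highest for Nup188 (246 FPKM) and replicate 3 the lowest for Xpo5 (249 FPKM).

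OHT_4h replicate 3 was the highest for Nup85 (105 FPKM), Nup62 (78.2 FPKM), Xpo4 (21.5 FPKM), Xpo6 (25.1 FPKM) and Xpot (91.0 FPKM); it was highest of its group in 63.3% of all 12574 genes at or above 1 FPKM. At 8 h, replicate 1 was the highest for Nup133 (36.1 FPKM), and replicate 4 was the highest for Ipo11 (21.5 FPKM) and the lowest for Ipo13 (17.4 FPKM). At 16 h, replicate 2 was the lowest for Kpna4 (49.6 FPKM) and replicate 1 the highest for Ipo13 (32.7 FPKM). With each of these fibroblast libraries left out, 0 of the 39 tested genes were called in the comparisons that hold it.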

How the results depend on the processing

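Calls in transgenic spleens against WT ranged from 9 to 20 higher with 1 library left out, 18 as reported, and 0 were lower in each of those fits. Over all genes tested, 1341 to 2684 were higher in those fits, 2206 as reported. In tumours against WT, calls on the transport genes ranged from 18 to 25 higher, and 1 gene, Ipo8, was lower without Tg_lymphnode replicate 1. Over all genes tested, 2342 to 3466 were higher there, 2997 as reported. No called gene changed direction under any alternative run. Numbers shared by replicates do not mark pairs by the labels: deviations of same-numbered libraries correlated at -0.02 to 0.49, and in no comparison against 0 h was each pair above 0.1. Between 8 and 4 h each of the 4 pairs was, and the block changed no call on these genes there. Fibroblast libraries numbered 4 correlated at 0.321 to 0.489 in each comparison, and that of the later time matched that of the earlier time best. In transgenic against WT spleens both shared numbers, 3 and 4, correlated at 0.127 and 0.136, also above 0.1, and each matched its own number best. With a replicate block on shared numbers 2 of the transport genes were higher in transgenic spleens, against 18 without it, and 0 in tumours, on 2 pairs each. In the other comparisons 0 were. Of all genes tested, 575 were higher in transgenic spleens with the block, against 2206 without it, and 0 in tumours. At 4, 8 and 16 h of OHT the block gave 408, 313 and 349 of all genes higher, against 246, 156 and 228 without it. It gave 697, 416 and 1722 lower, against 372, 127 and 1002. Within high Rpph1, 9 of the transport genes were higher in transgenic spleens, where 908 of all genes tested were. In fibroblasts, 1, 1 and 4 genes were higher at 4, 8 and 16 h with median ratio scaling, where 738, 652 and 979 of all genes tested were. Quantile normalization gave 2, 2 and 3, where 888, 681 and 1022 of all genes tested were higher. With median ratio scaling and the 4 libraries numbered 4 left out, an alternative chosen after seeing the data, 7, 3 and 6 were higher, where 1471, 1090 and 1403 of all genes tested were. The cause was not tested. Over single genes, 5605 of the values recomputed kept their side of the threshold, 129 lost a call and 44 gained one. Apart from the block, the Rpph1 split and the left-out libraries, 12 of 18 calls in transgenic spleens were kept under each of 9 other settings, and 17 of 21 in tumours under each of 8. The unknown depth, 3 or 4 libraries per group and the narrow range of fibroblast values limit what differences could be seen.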
